A study of Rattus norvegicus with 421 samples.

Results

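Mdm2 and Ccng1 are 2 of the 10411 genes measured here in rat liver, and they were chosen by name, as a pair of p53 target genes whose products feed back on p53. They were read by 3 of the 15866 probe sets. The change of each gene against vehicle was followed in all 98 treated groups of 30 compounds, with the earliest time at which it rose.

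The animals were Wistar Hanover males, aged 8 to 10 weeks at dosing, which received a compound or its vehicle by daily gavage. Bulk liver RNA was hybridized to Affymetrix RAE230A arrays, 293 from treated and 128 from vehicle animals. Each of the 98 treated groups was set against the vehicle group that its label names, of the same vehicle and time (corn oil, carboxymethylcellulose or, for acetaminophen, saline). Corn oil served 2-NF, 3-MC, CIDB, CPA, DCB, DMN and MDA, and carboxymethylcellulose the rest. Groups held 3 animals, apart from 1 treated group of 2 (DES at day 1), 2 vehicle groups of 4 and 4 vehicle groups of 6, with 1 array per animal. In the study, which describes only some of these compounds, the arrayed treated animals were picked from larger groups for liver changes on histopathology. Such picking is not stated for vehicle animals. It can bear on the size of the changes as well as on their spread, and this was not tested. P-values measure the spread between the arrayed animals, and the number of arrays limits the precision.

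Treated groups were C.I Direct Black (CIDB, 146 mg/kg), dimethylnitrosamine (DMN, 4 mg/kg), 2-nitrofluorene (2-NF, 44 mg/kg), aflatoxin B1 (AB1, 0.24 mg/kg), N-nitrosomorpholine (NNM, 3.5 mg/kg), thioacetamid (TAA, 19.2 mg/kg) and methapyrilene (MPy, 60 mg/kg) at days 3 and 7. The tobacco nitrosamine NNK (20 mg/kg) was sampled at days 7 and 14. Piperonyl-butoxide (PBO, 1200 mg/kg), diethyl-stilbestrol (DES, 10 mg/kg) and Wy-14643 (Wy, 60 mg/kg) were sampled at days 1 and 3, and acetaminophen (Aap, 4250 mg/kg) at 6, 12, 24 and 48 hours. The remaining compounds were sampled at days 1, 3, 7 and 14. They were N-nitrosopiperidine (NPip, 20 mg/kg), 2-acetylaminofluorene (2-AAF, 1.2 mg/kg), ethionine (ETH, 200 mg/kg), acetamide (AA, 3000 mg/kg), methylcarbamate (Mcarb, 400 mg/kg), cyproterone acetate (CPA, 100 mg/kg), 3-methylcholanthrene (3-MC, 25 mg/kg), methylendianiline (MDA, 50 mg/kg), nifedipine (Nif, 3 mg/kg), phenobarbital (PB, 80 mg/kg), dehydroepiandrosterone (DHEA, 600 mg/kg), 1,4-dichlorobenzene (DCB, 300 mg/kg), cefuroxime (CFX, 250 mg/kg), ibuprofen (Ibup, 94 mg/kg), allyl alcohol (AlAl, 36 mg/kg), clonidine (Clon, 0.1 mg/kg), prazosin (Praz, 1 mg/kg) and propranolol (Prop, 40 mg/kg). Each compound was given at a single dose, so no dose response can be read.

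The transcription factor p53 is held at a low level in unstressed cells, mainly because Mdm2, a ubiquitin ligase, binds it and marks it for breakdown. DNA damage stabilizes p53, which then raises transcription of its targets, Mdm2 among them, so that the response carries its own brake. Ccng1 encodes cyclin G1, another p53 target, which recruits the phosphatase PP2A to Mdm2 and takes part in the same loop. Both genes are widely used as transcript readouts of p53 activity in tissues, the liver included.

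The promoter windows of both genes are shown because p53 acts by binding DNA near its targets. The sequences are those of RefSeq on build GRCr8, run 5′ to 3′ on the gene's strand. They reach from 250 bases before to 50 bases after the start of transcription. Capitals mark matches to the p53 half-site consensus, 10 bases long, which is part of a response element and not a whole one. Matches on either strand were taken, with at most 1 mismatch outside the core C and G. The Mdm2 gene (gene identifier 314856) lies at chr7:55176558-55201757 and the window at chr7:55200742-55201041, minus strand. That window lies wholly within the annotated span of Mdm2, so its start site is not the outermost one of the gene. The Ccng1 gene (gene identifier 25405) lies at chr10:25678503-25684876 and the window at chr10:25684827-25685126, minus strand.
Mdm2: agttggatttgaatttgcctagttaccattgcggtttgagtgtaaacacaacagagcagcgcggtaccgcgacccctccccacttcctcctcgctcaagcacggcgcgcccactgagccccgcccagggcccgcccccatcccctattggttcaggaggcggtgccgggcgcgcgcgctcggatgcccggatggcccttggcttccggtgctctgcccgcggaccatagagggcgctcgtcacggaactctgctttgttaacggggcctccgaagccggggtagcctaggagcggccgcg
Ccng1: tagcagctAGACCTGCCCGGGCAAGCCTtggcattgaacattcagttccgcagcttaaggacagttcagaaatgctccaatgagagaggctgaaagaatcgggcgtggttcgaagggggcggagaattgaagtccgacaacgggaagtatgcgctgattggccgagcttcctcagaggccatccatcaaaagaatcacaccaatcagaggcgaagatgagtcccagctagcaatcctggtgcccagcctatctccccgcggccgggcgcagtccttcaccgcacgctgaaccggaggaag

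The Ccng1 window held 2 matches side by side, at -242 to -233 and -232 to -223 from the start, the first with 1 mismatch and the second with 0. Of 33469 rat promoter windows of this length, 49% held at least 1 match under this rule, 7.98% held one without a mismatch and 0.167% held 2 directly next to each other. The Mdm2 window held 0 matches, and this says only that these letters are not in this window. The well-studied p53 elements of human and mouse Mdm2 lie in the first intron, downstream of such a window. Binding was not measured here.

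Mdm2 was read by probe sets 1384427_at, with a mean of 7.62 over all arrays (log2 value of the robust multi-chip average, RMA), and 1383485_at, with a mean of 6.13. The brighter one stands for the gene below, and the dimmer one is given separately. Ccng1 was read by 1367764_at, with a mean of 8.80. The level of a probe set depends on its own affinity, so levels are compared between groups and not between genes. In bulk liver a change in cell number and a change in RNA per cell cannot be told apart.

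In vehicle animals both genes were steady. Mdm2 lay between 6.72 and 7.60 on the 128 vehicle arrays (median 7.20), and the median SD within the 38 vehicle groups was 0.12. Ccng1 lay between 7.81 and 8.74 (median 8.27), with a median SD of 0.10. Of 293 treated arrays, 122 exceeded the highest vehicle array for Mdm2 and 130 for Ccng1. The highest treated arrays, both from CIDB at day 7, reached 11.10 for Mdm2 and 11.88 for Ccng1. The liver markers were high on every array, with albumin between 14.86 and 15.19. On 7 arrays the mean of pancreas or skeletal muscle markers stood more than 2 above its median over all arrays, and calls that rest on them are given with and without them.

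A gene was called higher where the limma fit over all arrays gave an adjusted p below 0.05 (Benjamini-Hochberg over all probe sets of a comparison) and a change of at least 1.5-fold. Mdm2 was called higher in 32 of 98 treated groups and in 16 of 30 compounds. Ccng1 was called higher in 31 groups and 17 compounds. Neither gene was called lower in any group. Over all probe sets and comparisons 1.02% of tests were called higher and 0.731% lower, and the median probe set was called higher in 0 groups. At least as many groups as for Mdm2 were found for 7 probe sets, or 0.0441% of all, and at least as many as for Ccng1 for 11, or 0.0693%. Because some vehicle groups serve several comparisons, the groups counted are not independent of each other.

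In all 32 groups called for Mdm2 and all 31 called for Ccng1, every treated array lay above every array of the vehicle group. A call already needs a change that is large beside the spread between arrays. This separation is therefore no separate evidence of a rise. The called changes of Mdm2 ran between 0.64 and 3.44 (log2, treated minus vehicle) with a median of 1.58, and those of Ccng1 between 0.61 and 3.36 with a median of 1.97. In the 66 groups not called for Mdm2 the changes lay between -0.42 and 0.53 (median 0.11), and in the 67 not called for Ccng1 between -0.25 and 0.65 (median 0.19). Among the uncalled groups every treated array was above every vehicle array in 14 for Mdm2 and 22 for Ccng1, and below in 5 and 1. How often other probe sets separate in this way was not counted, and some of these groups share vehicle arrays. These counts are therefore not read as a rise or a fall.

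The 2 genes were called together in 27 groups, which is 84.4% of the groups of Mdm2 and 87.1% of those of Ccng1. Mdm2 alone was called in 5 groups, Ccng1 alone in 4 and neither in 62. In the 62 groups with neither called, 0.529% of all tests were higher. Across the 98 groups the changes of the 2 genes had a Pearson r of 0.89, a description over groups that share vehicle arrays. In the groups with neither called r was 0.20 (n = 62), and over the vehicle arrays, each taken as its deviation from its group mean, it was 0.06 (n = 128).

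**Figure D1:**
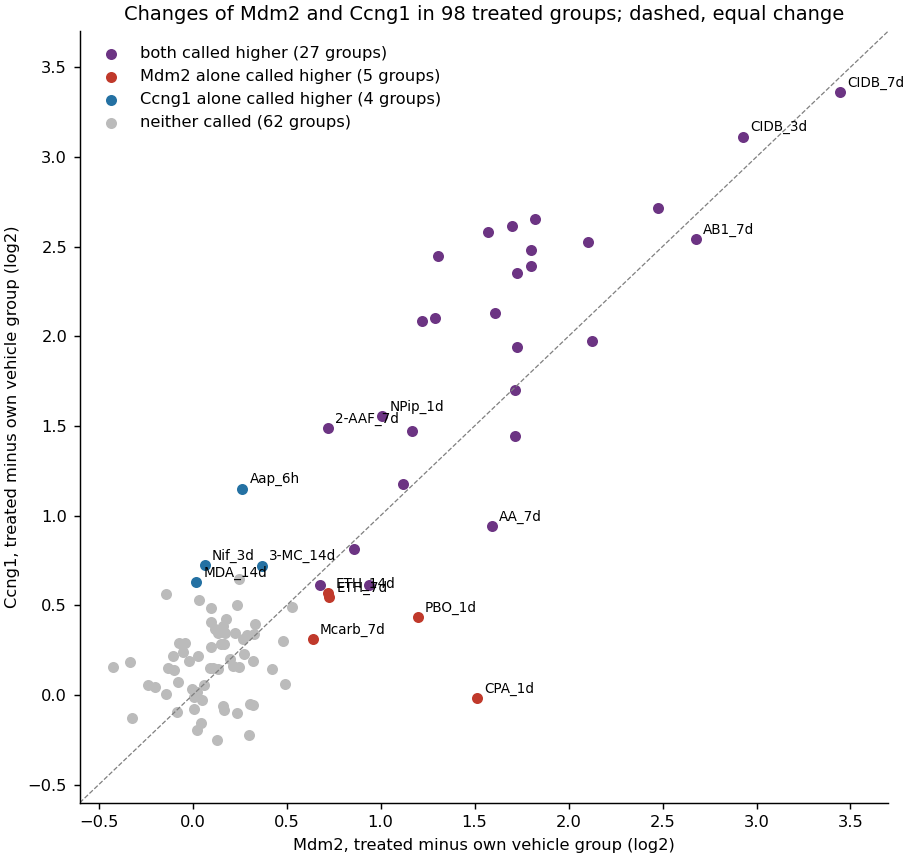
Change of Ccng1 (vertical, log2 treated minus own vehicle group) against that of Mdm2 (horizontal) in 98 treated groups, coloured by call, with the line of equal change dashed. The 27 groups with both called run up to CIDB at day 7, while CPA and PBO at day 1 lie far to the right and Aap at 6 hours lies above the line.

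The earliest rise differed between compounds. Mdm2 was first called at day 1 in CPA, ETH, NPip and PBO, at 24 hours in Aap, at day 3 in 6 compounds (2-NF, AB1, CIDB, DMN, NNM and TAA) and at day 7 in 5 (2-AAF, AA, MPy, Mcarb and NNK). Ccng1 was first called at 6 hours in Aap, at day 1 in ETH and NPip, at day 3 in the same 6 compounds as Mdm2 and in Nif, at day 7 in 2-AAF, AA, MPy and NNK, and at day 14 in 3-MC, Mcarb and MDA. Of the 22 compounds sampled within the first day, Mdm2 was called at that first time in 4 and Ccng1 in 3. For 8 compounds the first sample was at day 3 or, for NNK, day 7, and for 7 of them, all but MPy, the earliest call was at that first sample, so an earlier rise was not observable.

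**Figure D2:**
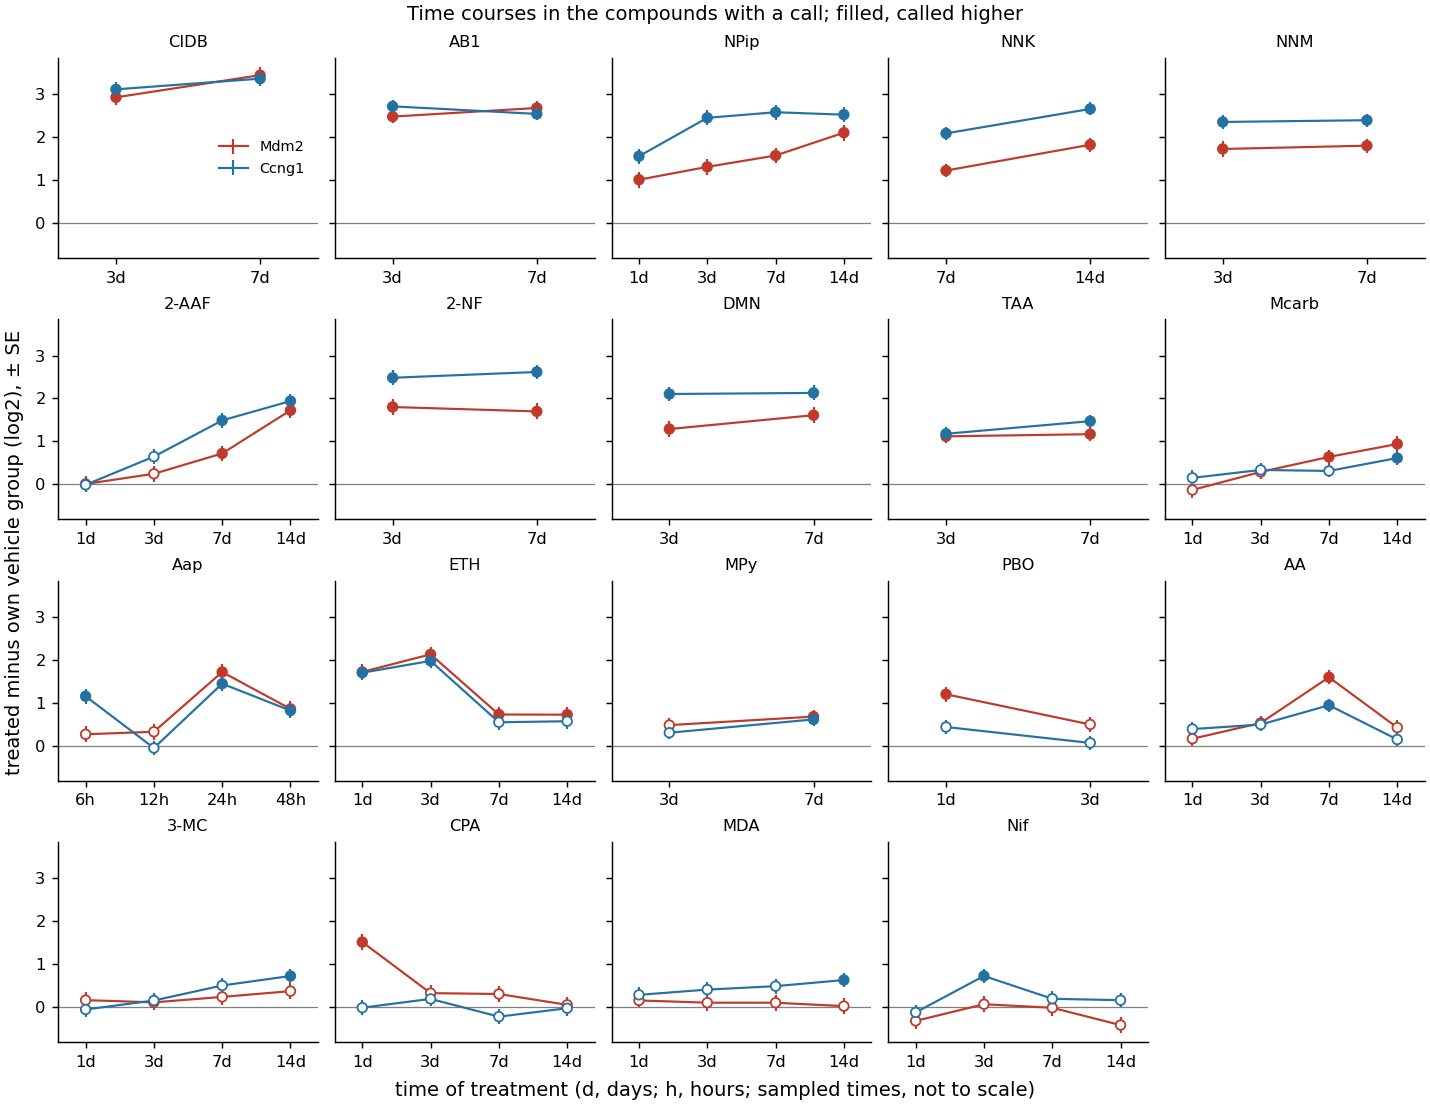
Change of Mdm2 (red) and Ccng1 (blue) against the own vehicle group (log2, ± SE of the fit) at each sampled time in the 19 compounds with a call, with filled points called higher. CIDB and AB1 were high at both times, 2-AAF climbed to day 14, and ETH, CPA and PBO were highest at their early times.

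CIDB, an azo dye, gave the largest change of both genes. At day 7 Mdm2 stood at 10.41, 10.30 and 11.10 in CIDB livers, against 7.36, 7.09 and 7.03 in corn oil livers, a change of 3.44 ± 0.19 (SE; adjusted p = 8.1e-48) or 10.9-fold. Ccng1 stood at 11.60, 11.28 and 11.88 in CIDB livers, against 8.30, 8.13 and 8.25 in corn oil livers, a change of 3.36 ± 0.17 (adjusted p = 1.4e-50) or 10.3-fold. The rise was already near this size at day 3, with 2.93 for Mdm2 and 3.11 for Ccng1. The change did not pass the test between the 2 times (difference 0.52 ± 0.26 for Mdm2, adjusted p = 0.45, and 0.25 ± 0.25 for Ccng1, adjusted p = 0.78). In these comparisons 1.02% of probe sets were called higher at day 3 and 2.38% at day 7.

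AB1, a mould toxin that forms DNA adducts in hepatocytes, came next for Mdm2. At day 7 Mdm2 stood at 10.13, 8.98 and 10.42 in AB1 livers, against 6.93 to 7.33 (median 7.16) in 6 carboxymethylcellulose livers, and Ccng1 at 11.40, 10.11 and 11.37 in AB1 livers, against 8.28 to 8.61 (median 8.40). One AB1 animal was thus more than 1 log2 unit below the other 2 for both genes, yet above every vehicle animal. The changes were 2.68 ± 0.16 for Mdm2 and 2.54 ± 0.15 for Ccng1 at day 7, and 2.48 and 2.72 at day 3. The share of probe sets called higher was 1.3% at day 3 and 2.45% at day 7.

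The nitrosamines, which need metabolic activation to alkylate DNA, raised both genes at every time sampled. NNK changed Mdm2 by 1.22 at day 7 and 1.82 at day 14, and Ccng1 by 2.09 and 2.66. In NNK livers at day 14 Ccng1 stood at 11.22, 10.53 and 11.01, against 7.81 to 8.51 (median 8.34) in 6 vehicle livers. NNM changed Mdm2 by 1.72 at day 3 and 1.80 at day 7, and Ccng1 by 2.35 and 2.39. DMN changed Mdm2 by 1.29 and 1.61 and Ccng1 by 2.10 and 2.13 at the same days. All 12 of these changes were called. The background of probe sets called higher was 0.252% and 0.813% for NNK, 0.403% and 0.851% for NNM and 0.107% and 0.952% for DMN, in order of time. The call for Mdm2 in DMN at day 3, where 1 animal stood at 9.18 and the others at 8.15 and 8.06, was lost in a fit of the compared groups only (adjusted p = 0.39).

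NPip was the earliest of the nitrosamines, being the only one sampled at day 1. At that day Mdm2 stood at 8.04, 8.24 and 8.26 in NPip livers, against 7.16, 7.03 and 7.32 in vehicle livers, a change of 1.01 ± 0.19 (adjusted p = 0.00036). Ccng1 stood at 9.80, 9.75 and 9.74 in NPip livers, against 7.93, 8.28 and 8.42 in vehicle livers, a change of 1.56 ± 0.17 (adjusted p = 6.4e-13). The members were 2 of only 9 probe sets called higher in that comparison (0.0567%). The change of Ccng1 was then 2.45, 2.58 and 2.52 at days 3, 7 and 14, and that of Mdm2 was 1.31, 1.57 and 2.10. The change of Mdm2 was larger at day 14 than at day 1 by 1.10 ± 0.26 (adjusted p = 0.041, with 0.126% of probe sets passing), a call that was lost when single arrays were left out. The share of probe sets called higher was 0.296%, 1.43% and 0.668% at days 3, 7 and 14.

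2-NF and 2-AAF are aromatic amine type carcinogens of the same fluorene ring system, given at different doses, so their values are set side by side without comparison. 2-NF changed Mdm2 by 1.80 at day 3 and 1.70 at day 7, and Ccng1 by 2.48 and 2.62, with 0.618% and 0.782% of probe sets called higher. The 3 animals at day 7 were spread, at 9.46, 8.95 and 8.17 for Mdm2 and 11.27, 10.90 and 10.35 for Ccng1, in the same order for both genes.

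2-AAF gave the plainest time course. At day 1 the changes were 0.01 for Mdm2 and -0.01 for Ccng1. Ccng1 stood at 8.71, 9.16 and 8.75 in 2-AAF livers at day 3, against 8.25, 8.19 and 8.24 in vehicle livers, a change of 0.65 ± 0.17 that was not called (adjusted p = 0.14) although the groups did not overlap. Ccng1 then changed by 1.49 at day 7 and 1.94 at day 14, and Mdm2 by 0.72 and 1.72, all called, with 0.164% and 0.687% of probe sets called higher. The change was larger at day 14 than at day 1 for both genes, by 1.72 ± 0.26 for Mdm2 (adjusted p = 7e-07) and 1.95 ± 0.25 for Ccng1 (adjusted p = 3.3e-10), with 4.78% of probe sets passing. At day 14 Mdm2 stood at 8.58, 8.65 and 9.80 in 2-AAF livers, against 7.43, 7.12 and 7.30 in vehicle livers, so that 1 animal was apart for Mdm2 but not for Ccng1 (10.23, 10.45 and 10.48). Without the vehicle array that carried muscle transcripts the day 14 changes were 1.73 and 1.97, both called. The call for Mdm2 at day 7 was lost without the vehicle array that carried pancreas and muscle transcripts (change 0.74, adjusted p = 0.052), and that at day 14 in a fit of the compared groups only (adjusted p = 0.079).

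TAA, a hepatotoxin that is activated in the liver, gave a smaller and level rise. Mdm2 changed by 1.12 at day 3 and 1.17 at day 7 and Ccng1 by 1.18 and 1.47, all called, with 1.12% and 0.977% of probe sets called higher. At day 7 Ccng1 stood at 9.61, 9.89 and 10.17 in TAA livers, against 8.28 to 8.61 in vehicle livers.

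ETH, the ethyl analogue of methionine, gave an early peak that came down. Mdm2 stood at 9.31, 9.75 and 9.29 in ETH livers at day 3, against 7.27, 7.51, 7.16 and 7.34 in vehicle livers, and Ccng1 at 9.52, 10.59 and 10.21 in ETH livers, against 8.09, 8.08, 8.08 and 8.28. Mdm2 changed by 1.72, 2.13, 0.73 and 0.72 at days 1, 3, 7 and 14, all called. Ccng1 changed by 1.70, 1.97, 0.54 and 0.57, with the last 2 below the 1.5-fold threshold though past the p threshold (adjusted p = 0.016 and 0.0072). The change at day 14 was smaller than at day 1, by -0.996 ± 0.254 for Mdm2 (adjusted p = 0.0016) and -1.13 ± 0.24 for Ccng1 (adjusted p = 8.9e-05), where 16.3% of probe sets passed. These comparisons were broad, with 4.57%, 7.91%, 2.45% and 4.29% of probe sets called higher at the 4 days. Leaving out the second treated animal took Mdm2 below 1.5-fold at day 7 (0.57) and day 14 (0.58), as did a comparison with all vehicle arrays of the same time at day 14 (0.45).

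AA, a simple amide, had the genes called at day 7 alone among its 4 days, and day 7 was not tested against the other days. Mdm2 stood at 8.83, 8.51 and 8.93 in AA livers at day 7, against 6.93 to 7.33 in 6 vehicle livers, a change of 1.59 ± 0.16 (adjusted p = 4.2e-17). Ccng1 stood at 9.32, 9.04 and 9.72 in AA livers, against 8.28 to 8.61, a change of 0.94 ± 0.15 (adjusted p = 5.6e-08), where 3.52% of probe sets were called higher. At day 3 both genes were past the p threshold but below 1.5-fold (0.53 for Mdm2 and 0.49 for Ccng1), and at day 14 they stood at 0.42 and 0.14, not called.

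**Figure D3:**
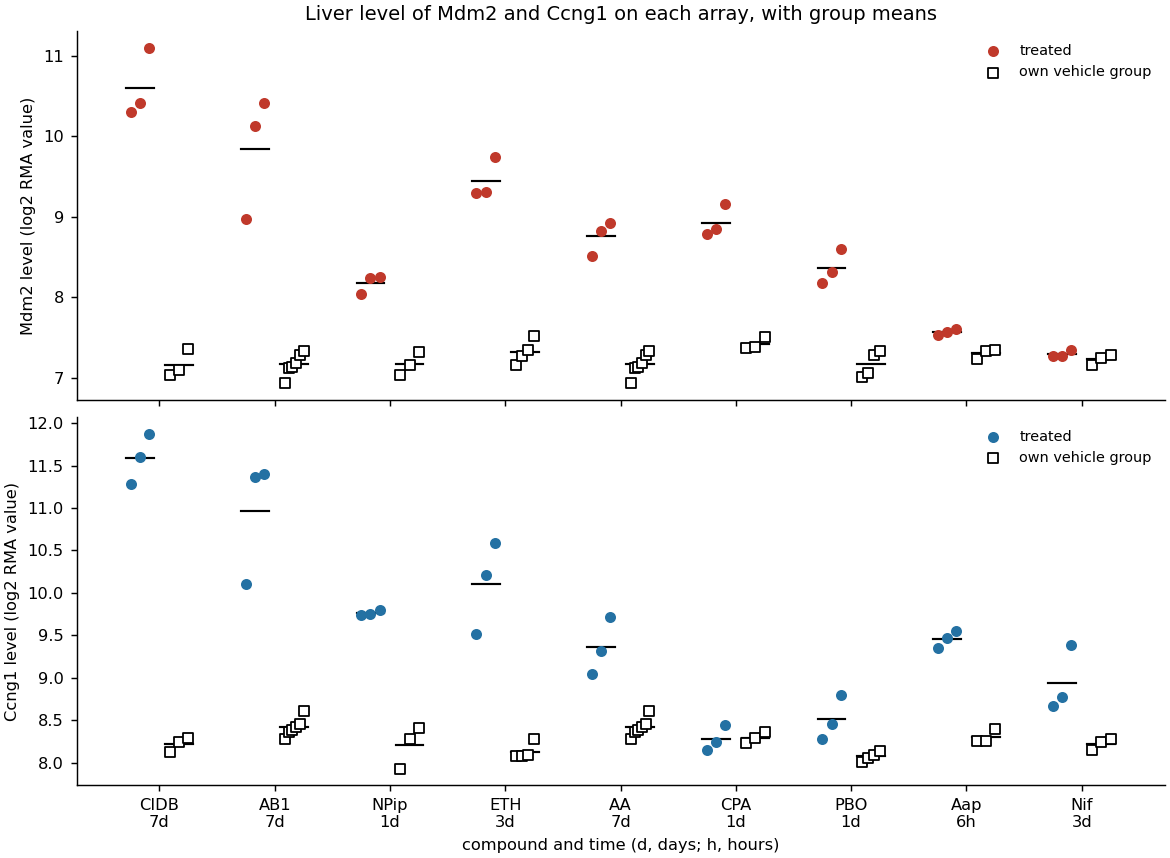
Level of Mdm2 (upper panel) and Ccng1 (lower panel) on each array (log2 RMA value), with treated animals as filled circles left of their vehicle group as open squares and bars at the group means, in 9 treated groups. CPA animals at day 1 lie above their vehicle group for Mdm2 and among it for Ccng1, and Aap animals at 6 hours stand well above it for Ccng1.

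Mdm2 rose without a call for Ccng1 in CPA and PBO at day 1. CPA is a steroidal antiandrogen and PBO an insecticide synergist, and both are inducers of liver growth. In CPA livers at day 1 Mdm2 stood at 9.16, 8.85 and 8.78, against 7.38, 7.37 and 7.51 in corn oil livers, a change of 1.51 ± 0.19 (adjusted p = 3.5e-12). Ccng1 stood at 8.44, 8.25 and 8.15 in the same CPA livers, against 8.37, 8.29 and 8.23, a change of -0.02 ± 0.17 (adjusted p = 0.97). Mdm2 was no longer called at day 3, when the change was 0.32 with 1 of 3 animals at 8.31, and the change at day 14 was smaller than at day 1 by -1.46 ± 0.26 (adjusted p = 4e-05, with 2.22% of probe sets passing). PBO at day 1 changed Mdm2 by 1.20 ± 0.17 (adjusted p = 1.3e-09) and Ccng1 by 0.43 ± 0.16, which was below 1.5-fold (adjusted p = 0.034), with all PBO animals above all vehicle animals. The difference between the 2 genes' changes was 1.53 in CPA and 0.76 in PBO, with no overlap between treated and vehicle animals in either. Exact two-sided permutation tests of these differences gave p = 0.1 and p = 0.0286, each the smallest that the group sizes allow, and none of the 98 such differences passed adjustment (smallest adjusted p = 0.251).

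Most cell cycle genes measured were higher in these 2 groups. Of 17, 9 were called higher in CPA livers at day 1 and 14 in PBO livers, where 1.99% and 4.48% of probe sets were called higher. Mcm6, part of the replicative helicase, changed by 2.61 in CPA and 3.11 in PBO, and Pcna, the sliding clamp of DNA polymerase, by 1.67 and 2.00. Cdkn1a, the p53 target that encodes the cyclin-dependent kinase inhibitor p21, changed by -0.57 in CPA and -0.06 in PBO (adjusted p = 0.24 and 0.91). The part of cell division in the rise of Mdm2 was not tested. Among all groups with both members called, 61 of 459 cell cycle gene and group pairs were higher (13.3%, beside 2.03% over all genes). With neither called, 69 of 1054 were higher (6.55%, beside 0.556%). Both members were called in AA at day 7 (13 of 17 higher, 3.51% of all genes) and Aap at 48 hours (15, 7.12%). Neither was called in Wy at days 1 and 3 (11 each, 2.95% and 2.83%) or DHEA at those days (10 each, 1.78% and 2.57%).

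Mdm2 was also called without Ccng1 in ETH at days 7 and 14, above, and in Mcarb at day 7, where Mdm2 changed by 0.64 ± 0.16 and Ccng1 by 0.31 ± 0.15 with 0.378% of probe sets called higher. At day 14 Mcarb, an ester of carbamic acid, had both genes called, with 0.94 ± 0.19 for Mdm2 and 0.61 ± 0.17 for Ccng1 (0.548% of probe sets). Mdm2 stood at 8.30, 7.88 and 8.43 in Mcarb livers at day 14, against 7.12, 7.27 and 7.41 in vehicle livers. The change of Mdm2 grew by 1.07 ± 0.26 between days 1 and 14 (adjusted p = 0.037, with 0.214% of probe sets passing). The Mdm2 call at day 7 was lost without the second treated animal (0.53), and the growth with time when single arrays were left out. The Ccng1 call at day 14 was lost in 7 settings, among them without the treated animal at 9.48 (0.42), without any 1 of the 3 vehicle animals, with quantile normalization and in the fit of the compared groups only (adjusted p = 0.29). The Mdm2 call at day 14 was lost in that last fit as well (adjusted p = 0.088).

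In Aap at 6 hours Ccng1 was called and Mdm2 was not. Ccng1 stood at 9.35, 9.47 and 9.55 in Aap livers, against 8.26, 8.39 and 8.26 in saline livers, a change of 1.15 ± 0.17 (adjusted p = 9.1e-09). Mdm2 stood at 7.61, 7.53 and 7.57 in Aap livers, against 7.34, 7.23 and 7.33, a change of 0.27 ± 0.19 (adjusted p = 0.43) without overlap of the groups. The difference between the 2 genes' changes (Mdm2 minus Ccng1) was -0.89, with no overlap between treated and vehicle animals. An exact permutation test of it gave p = 0.1 (adjusted p = 0.251). That is the smallest p that 3 against 3 arrays allow, so the test could not pass and does not decide whether the genes differed. At 12 hours neither was called (0.32 for Mdm2 and -0.06 for Ccng1), and at 24 hours both were, with 1.71 ± 0.19 for Mdm2 and 1.44 ± 0.17 for Ccng1, falling to 0.86 and 0.82 at 48 hours. Ccng1 was thus called at 6 and 24 hours and not between them, but 12 hours was not tested against the other times. At 12 hours Ccng1 stood at 8.45 to 8.72 in Aap livers and 8.44 to 8.74 in saline livers. The saline median was 8.63 at 12 hours, against 8.26 at 6 hours and 8.24 at 24 hours. Cdkn1a changed by 2.01 at 6 hours and was called, and by 0.46 at 24 hours and 0.07 at 48 hours and was not. The animal with 9.55 for Ccng1 at 6 hours carried muscle transcripts, and without it Ccng1 changed by 1.10 and was called. The share of probe sets called higher was 2.75%, 6.72% and 6.01% at 6, 24 and 48 hours.

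The remaining calls of Ccng1 alone were small. In Nif livers at day 3 Ccng1 stood at 9.39, 8.67 and 8.78, against 8.28, 8.25 and 8.15 in vehicle livers, a change of 0.72 ± 0.17 with Mdm2 at 0.06, and Cdkn1a was called there too (1.19). Without the animal at 9.39 the Ccng1 change was 0.50 and not called. In 3-MC livers at day 14 Ccng1 changed by 0.72 ± 0.17 and Mdm2 by 0.37, and in MDA livers at day 14 by 0.63 ± 0.17 with Mdm2 at 0.02. The MDA call was lost without the first treated animal (adjusted p = 0.057) and without the vehicle animals at 8.04 or 8.22 (adjusted p = 0.14 and 0.067). In these 3 groups 0.485%, 0.794% and 0.744% of probe sets were called higher. MPy, an antihistamine, had both genes called at day 7 just above the threshold, with 0.68 for Mdm2 and 0.61 for Ccng1 (1.79% of probe sets), and the Ccng1 call fell below 1.5-fold without the treated animal at 9.19 (0.53) or the vehicle animal at 8.28 (0.58).

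In 11 compounds neither gene was called at any time. They were AlAl, CFX, Clon, DCB, DES, DHEA, Ibup, PB, Praz, Prop and Wy. The largest uncalled changes of Ccng1 among them were 0.56 in Wy at day 1 (adjusted p = 0.013, and 0.51 with adjusted p = 0.066 without the animal that carried pancreas transcripts) and 0.53 in DES at day 3 (adjusted p = 0.017), where the treated animals (8.67, 8.65 and 8.65 in DES livers) stood above all 4 vehicle animals (8.09, 8.08, 8.08 and 8.28). The lowest change of Mdm2 in any group was -0.42 ± 0.19, in Nif at day 14, with 6.80, 7.02 and 6.90 in Nif livers, against 7.28, 7.39 and 7.32 in vehicle livers (adjusted p = 0.14).

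Ordered by the change at the last time point, Mdm2 ran from CIDB (3.44) through AB1 (2.68), NPip (2.10), NNK (1.82), NNM (1.80), 2-AAF (1.72), 2-NF (1.70), DMN (1.61) and TAA (1.17) to Mcarb (0.94), Aap (0.86), ETH (0.72) and MPy (0.68). No neighbours in that order passed the adjusted threshold, with CIDB against AB1 nearest to it (difference 0.76 ± 0.25, adjusted p = 0.053). On the dimmer probe set CIDB came before NPip, and these differed by 1.52 ± 0.18 (adjusted p = 6.4e-12, with 2.76% of probe sets passing). For Ccng1 the order was CIDB (3.36), NNK (2.66), 2-NF (2.62), AB1 (2.54), NPip (2.52), NNM (2.39), DMN (2.13), 2-AAF (1.94), TAA (1.47) and Aap (0.82). There CIDB differed from NNK by 0.71 ± 0.23 (adjusted p = 0.041, with 6.45% of probe sets passing) and TAA from Aap by 0.65 ± 0.23 (adjusted p = 0.03, with 18.7% passing), and no other neighbours passed. Last times differed, being day 7 for CIDB and TAA, day 14 for NNK and 48 hours for Aap. Compound and length of treatment therefore cannot be told apart in these orders. In 18 of the 27 groups with both called the change of Ccng1 was the larger one.

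**Figure D4:**
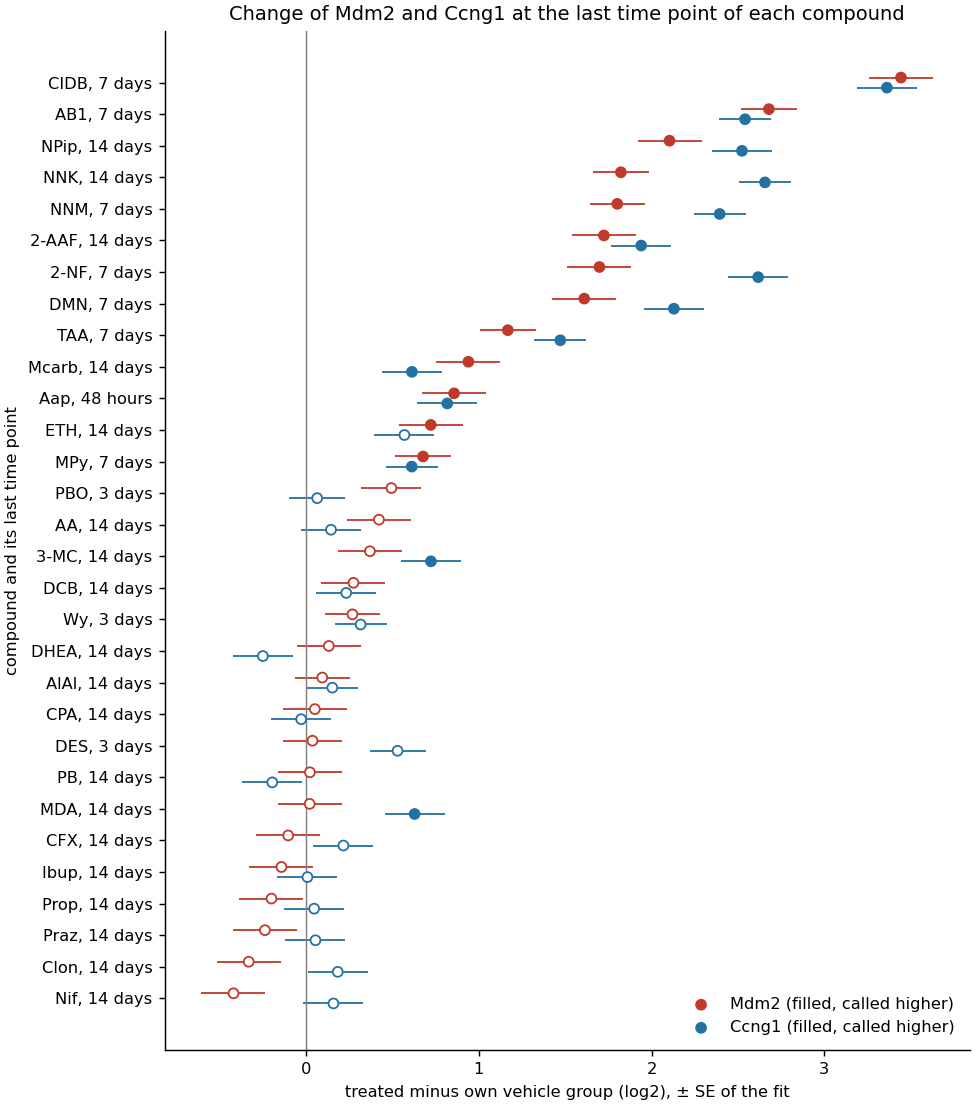
Change of Mdm2 and Ccng1 (log2 treated minus own vehicle group, ± SE of the fit) at the last time point of each of 30 compounds, in the order of Mdm2, with filled points called higher. The first 9 compounds, CIDB to TAA, stand above 1 for both genes, and most of the others lie near 0.

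Some compounds, 12 of the 30, belong to classes by carcinogenicity that the study set, and class means of the change at the last time point were compared, each compound giving 1 value. The genotoxic carcinogens (CIDB and DMN) averaged 2.53 for Mdm2, against 0.43 over the 8 non-genotoxic carcinogens, whose values lay between 0.02 and 0.94 (exact two-sided permutation test, p = 0.0222, adjusted p = 0.0444 over 6 tests). For Ccng1 the means were 2.75 in the genotoxic and 0.26 in the non-genotoxic carcinogens (exact p = 0.0222, adjusted p = 0.0444). The smallest p that 2 against 8 compounds allow is 0.0222. CIDB and DMN share 1 corn oil vehicle group, while the 8 others had carboxymethylcellulose groups, some of them shared. The test takes the compounds as independent, and class and vehicle cannot be told apart here. The last time also differed, being day 7 for CIDB and DMN and day 3, 7 or 14 for the 8 others. At earlier times Mdm2 changed by 2.13 in ETH (day 3), 1.59 in AA (day 7) and 1.20 in PBO (day 1). Ccng1 changed by 1.97 in ETH at day 3 and 0.94 in AA at day 7. The rest of the 8 reached at most 0.94 for Mdm2 and 0.61 for Ccng1 at any time. The largest changes in DMN were 1.61 and 2.13. Mdm2 also differed between the non-genotoxic carcinogens (0.43) and the non-carcinogens CFX and Nif (-0.26, exact p = 0.0222, adjusted p = 0.0444), while Ccng1 did not pass that test (0.26 and 0.19, exact p = 0.933, adjusted p = 0.933). CFX and Nif also share 1 vehicle group, and Mdm2 was below it in all 6 compounds set against it at day 14 (-0.42 to -0.10), so the level of those vehicle arrays cannot be told apart from the class. All carcinogens together did not pass against the non-carcinogens for either gene (adjusted p = 0.25 for Mdm2 and 0.691 for Ccng1). All 3 passing results lost the threshold under several other settings, the day 3 values among them (adjusted p = 0.133, 0.367 and 0.133). AB1, NNK, NNM, NPip, 2-NF and 2-AAF, which are known DNA-reactive carcinogens, are outside these classes and were not part of the test.

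The genes most like Mdm2 over the 98 groups were Ccng1 (r = 0.89), Atp6v1d (0.89), a subunit of the vacuolar proton pump, Nhej1 (0.87), a factor of DNA end joining, Lama5 (0.86), a laminin chain, Glrx3 (0.85), a glutaredoxin, Skap2 (0.84), Rbck1 (0.83), a ubiquitin ligase component, Zfp688 (0.82), Vxn (0.81) and Cdkn1a (0.81). The most like Ccng1 were Cdkn1a (0.93), Mdm2 (0.89), Lama5 (0.88), Atp6v1d (0.88), 4930522L14Rikl (0.86), Nhej1 (0.85), Skap2 (0.85), Mgmt (0.84), a repair enzyme for alkylated guanine, Vxn (0.84) and Pias3 (0.83), a SUMO ligase. Atp6v1d was called higher in 29 groups, 28 of them groups called for Mdm2, and Nhej1 in 21, all of them groups called for Mdm2. The correlations are descriptions over 98 groups that share vehicle arrays.

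Other genes of the p53 pathway were read from lists chosen with earlier results of these data known. Among 8 measured regulators of p53 other than the members, in the 27 groups with both members called, 5 of 216 gene and group pairs were higher and 0 lower. That is 2.31% of the pairs, beside 2.03% over all genes in these groups. The 5 included Rchy1, a ubiquitin ligase of p53, and Ppm1d, a p53-induced phosphatase, which changed by 0.88 and 0.67 in ETH at day 3. Chek1, a checkpoint kinase, was called higher in 5 groups, with its largest change of 0.78 in PBO at day 1. Wwox had r = -0.68 with Mdm2 and -0.72 with Ccng1 but was called in 0 groups (lowest change -0.32).

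Calls of the arrest targets fell mostly in the groups where the members were called. Of 4 measured, 38 of 108 pairs were higher and 3 lower in the 27 groups with both members called (median change 0.44, against -0.01 over all genes), and 1 of 248 was higher in the 62 groups with neither. That is 35.2% and 0.403% higher, beside 2.03% and 0.556% over all genes, which were also called more often in the 27 groups. Cdkn1a was called higher in 24 groups, 21 of them among the 27, and in 0 of the 62 groups without a member call. Plk2, a polo-like kinase, was called in 10, all among the 27. Gadd45a, a stress sensor, was called in 9 and had low likeness (r = 0.33 with Mdm2 and 0.16 with Ccng1). Sesn1, a sestrin, was called higher in 0 groups and lower in 4, with its lowest change of -1.03 in CPA at day 1, a group where Mdm2 alone was called.

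Among 6 death targets, 24 of 162 pairs were higher and 3 lower in the groups with both members called, and 3 of 372 higher and 5 lower where neither was called. Over all genes 2.03% of pairs were higher with both members called and 0.556% with neither, beside 14.8% and 0.806% for these targets. Phlda3, an inhibitor of Akt, made up most of them, with 18 groups called higher and 7 lower, and changed by 2.05 in CIDB at day 7 and -0.95 in Aap at 6 hours. Fas, a death receptor, and Apaf1, of the apoptosome, were called in 0 groups. Of 7 repair and metabolism targets, 43 of 189 pairs were higher and 3 lower with both members called, and 10 of 434 higher and 5 lower with neither, or 22.8% and 2.30% higher beside the same shares over all genes. Mgmt was called higher in 19 groups (2.49 in AB1 at day 7), Rps27l, a ribosomal protein paralogue, and Gdf15, a stress cytokine, in 13 each. Rps27l was 1 of the 9 probe sets higher in NPip at day 1 (0.73 ± 0.15). Xpc, a damage sensor of excision repair, was called higher in 0 groups and lower in 11.

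**Figure D5:**
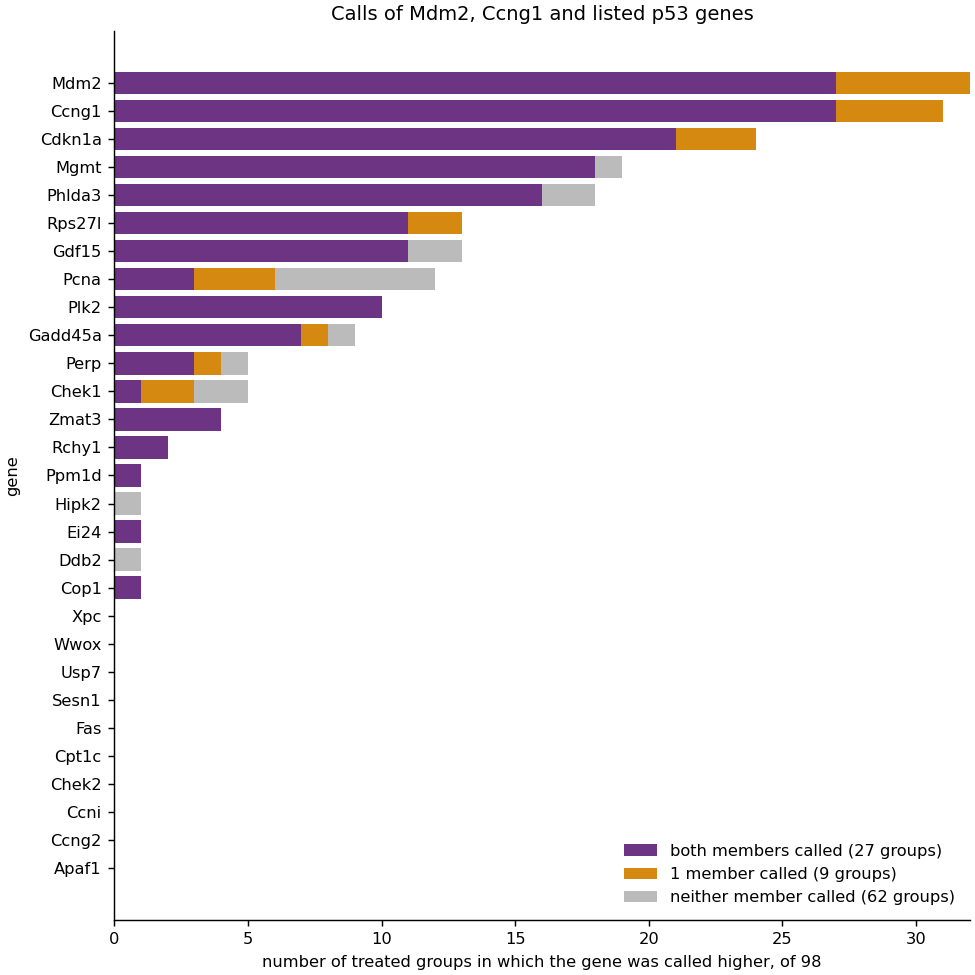
Number of treated groups, of 98, in which each gene was called higher, split into groups with both members called, with 1 called and with neither called. Cdkn1a, Plk2 and Zmat3 were called only in groups where at least 1 member was called, while Pcna had 6 of its 12 calls in groups with neither.

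Ccng2, a cyclin of the same subfamily, was called higher in 0 groups and lower in 2, and Ccni in 0 and 2. Of the PP2A subunits, Ppp2ca, the catalytic one, was called higher in 4 groups with its largest change of 0.86 in ETH at day 3, and Ppp2r5a, Ppp2r5c and Ppp2r1a were called in 0. Over all 7 genes of this list 2 of 189 pairs were higher and 2 lower in the groups with both members called, or 1.06% higher beside 2.03% over all genes.

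Markers of other cells moved in some of the same groups. At least 1 of 7 macrophage markers was called higher in 18 of the 27 groups with both members called and in 8 of the 62 with neither, and at least 1 was called lower in 17 of the 27 and 7 of the 62. Over all genes 2.03% of gene and group pairs were higher in the 27 groups and 0.556% in the 62. These are shares of pairs and not of groups with at least 1 marker, so they cannot be set against the counts above. Most of the 7 were higher in 7 of the 27 and 0 of the 62. In ETH at day 3, where 7.91% of probe sets were called higher, 6 of 7 were higher and 1 lower. Their mean levels lay between 10.66 and 10.86 in ETH livers and between 9.07 and 9.33 in vehicle livers. Bile duct markers were higher in AB1 at day 7 (5 of 7, mean level 6.63 to 7.80 in AB1 livers and 6.10 to 6.25 in vehicle livers), where 2.45% of probe sets were called higher. All 3 red cell markers were lower in CIDB at day 7 (8.25 to 8.55 in CIDB livers and 11.48 to 12.14 in vehicle livers). Over all comparisons 0.731% of tests were called lower. The part of these cells in the changes of Mdm2 and Ccng1 was not tested. In NNK at day 14 the animal with pancreas transcripts stood at 8.95 for Mdm2 and 11.22 for Ccng1, and in NPip at day 7 the animal with muscle transcripts at 8.67 and 10.90. Without those arrays Mdm2 changed by 1.81 in NNK and 1.62 in NPip and Ccng1 by 2.51 and 2.45, all called.

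In all 32 groups called for Mdm2 the dimmer probe set also changed upwards and by less (median 0.56). In the 66 other groups the 2 probe sets had opposite signs in 19. The dimmer one was called higher in 13 groups, all among the 32 of the brighter one, and its changes had r = 0.90 with it over 98 groups. Its largest change was 2.37 ± 0.13, in CIDB at day 7. It was called in CPA at day 1 (0.60 ± 0.13) and PBO at day 1 (0.75 ± 0.12), and not in any NPip group before day 14 nor in ETH. Its mean level was higher than that of only 23.7% of probe sets.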

How the data were processed

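Liver RNA from 421 rats was hybridized to Affymetrix RAE230A arrays, 1 array per animal. The values deposited by the authors were log2 expression values from robust multi-chip averaging (RMA), which corrects background, quantile normalizes and summarizes probes per set. For RMA, a version was not given in the sources used here. Such normalization assumes that most transcripts are unchanged, and summarizing compresses large folds. Gene names were taken from the platform annotation, updated through gene identifiers: 12783 of 15866 probe sets had 1 symbol, 312 several and 2771 none. The probe set with the highest mean stood for a gene.

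A linear model with 1 mean per group was fitted over all arrays (limma 3.58.1, R 4.3.3; 285 residual degrees of freedom), with moderated tests of treated minus own vehicle group. P-values were adjusted by Benjamini-Hochberg over all probe sets within each of the 98 comparisons, and a call needed an adjusted p below 0.05 and 1.5-fold (0.585 on the log2 scale). The change at the last time minus that at the first, and the difference between compounds neighbouring in order, were contrasts of the same fit. Class means were compared by exact permutation over compounds, and the difference between the 2 genes' changes by exact permutation over arrays. The fit was tested on simulated data.

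Genes named were every probe set of the members, the 10 genes with the highest Pearson r with each, and members of pathway and marker lists. The members and lists were chosen with earlier results of these data known. Some list genes, Mdm4, Bax and Btg2 among them, were not analysed here. Equal replicate numbers did not pair the animals: same-numbered deviations had a mean r of 0.0131 over 293 pairs. Alternatives were quantile normalization, a filter on the mean, a fit of the compared groups only, the replicate number as a block, each replicate left out, arrays with another tissue left out, all vehicle arrays of a time, other fold thresholds, adjustment over all comparisons, the other Mdm2 probe set and, for classes, day 3 and each compound left out.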

Additional observations from a re-analysis of the deposited data

Results flagged for a closer look

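Of 18 groups of 4 or more arrays examined for a single array apart, counted for every probe set of the members, 1 held one, and chance gives about 1 in 20. In the carboxymethylcellulose group of 4 that served ETH, DES and PBO at day 3, the highest Ccng1 array (8.28, next 8.09) was separated by a gap of 0.943 of the range.

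The change against vehicle differed between the last and the first time point, by a test of the difference itself in limma, in 7 cases. For Mdm2, on the brighter probe set, it was larger at day 14 than at day 1 in 2-AAF (1.72), Mcarb (1.07) and NPip (1.10), and smaller in CPA (-1.46) and ETH (-0.996). On the dimmer probe set the same limma test passed for 2-AAF (0.71, adjusted p = 0.013) and CPA (-0.61, adjusted p = 0.046). It did not pass there for Mcarb (0.43, adjusted p = 0.6), NPip (0.52, adjusted p = 0.38) or ETH (-0.20, adjusted p = 0.51). PBO, day 3 minus day 1, passed on the dimmer one alone (-0.61, adjusted p = 0.014, against -0.70, adjusted p = 0.066). For Ccng1 it was larger in 2-AAF (1.95) and smaller in ETH (-1.13).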

How the results depend on the processing

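Over the other settings, apart from the dimmer probe set, Mdm2 was called in 25 to 34 groups, and Ccng1 in 24 to 37. The dimmer Mdm2 probe set gave 13 groups, 10 compounds and 2 at the first time point. At 2-fold Ccng1 was called in 11 compounds, and with no fold threshold in 5 at the first time point. Of the single calls, 971 values kept their side of the threshold and 37 lost it, and of the time differences 73 kept it and 11 lost it, with the direction the same in each. These counts leave out the dimmer Mdm2 probe set and the other fold thresholds. At 2-fold Mdm2 was called in 25 of its 32 groups and Ccng1 in 24 of its 31. In the fit of the compared groups with the replicate number as a block, Mdm2 was called in 25 groups and Ccng1 in 26. The numbers pair no animals: every pair correlated above 0.1 in 4 of 97 comparisons.

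The class tests crossed the threshold in several settings. Their smallest p is 0.0222, so adjusted values move with the other tests of the 6, and they say little of stability. For genotoxic minus non-genotoxic carcinogens, Mdm2 gave 1.98 (adjusted p = 0.0667) with all vehicle arrays of a time, 1.34 (0.0667) with the dimmer probe set and 1.54 (0.133) at day 3, and Ccng1 gave 2.35 (0.0667) with all vehicle arrays and 2.08 (0.133) at day 3. For non-genotoxic carcinogens minus non-carcinogens, Mdm2 gave 0.59 (0.0889), 0.33 (0.0889) and 0.57 (0.367) in these settings. With a replicate or a compound left out, the first difference ran between 1.18 and 3.01 for Mdm2 and between 1.87 and 3.10 for Ccng1, and the second between 0.53 and 0.85 for Mdm2 and between -0.011 and 0.17 for Ccng1, the negative value (adjusted p = 0.978) being without the third treated replicate. The ends of the first came without CIDB and without DMN. These p-values are exact permutation values, and the cause was not tested. Calls were lost both near 1.5-fold and at larger changes, such as 1.72 for Mdm2 in 2-AAF at day 14 and 1.29 in DMN at day 3 in the fit of the compared groups only.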
